A study of Mus musculus with 6 samples.

Results

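The 10 genes described here encode the subunits of 2 families of glutamate-gated ion channels: the AMPA receptors (Gria1, Gria2, Gria3 and Gria4) and the NMDA receptors (Grin1, Grin2a, Grin2b, Grin2c, Grin2d and Grin3a). They were chosen by name, and each gene was read from its brightest probeset among those assigned to exactly 1 gene symbol. Of the 10, 9 had such a probeset, out of 22180 genes in all. Grin1, the NMDA subunit that binds the co-agonist glycine, has no named probeset in the annotation used and is not analysed here. Each of the 9 lay above the 25th percentile of mean level that 16635 genes passed, so 4 AMPA and 5 NMDA subunit genes were tested.

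AMPA receptors open within milliseconds of glutamate release and carry most of the fast excitation between neurons of the brain. NMDA receptors open when glutamate and glycine or D-serine are bound and the cell is already depolarised, and the calcium they admit drives lasting changes of synaptic strength. Both receptors assemble from several subunits, and the mixture sets calcium permeability, speed of closing and placement at the synapse.

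The tested mice were HuR KO (Thy1Cre-ERT2-EYFPHuRf/f), with both alleles of HuR floxed. HuR is the RNA-binding protein encoded by Elavl1. Their controls were HuR WT (Thy1Cre-ERT2-EYFPHuRf/+), with 1 floxed allele. Mice of both groups expressed Cre that tamoxifen switches on, together with a yellow reporter protein, from the neuronal Thy1 promoter. All received tamoxifen at 10 and 11 weeks of age, and total brain was taken at 91 days. RNA of 3 HuR KO and 3 HuR WT samples was hybridised to Mouse Gene 2.0 ST arrays, 1 array each. The labels do not name the animals one by one, so a p-value speaks for the spread among these arrays, part of which may be technical.

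Thy1 drives Cre in neurons, and the other cells of the brain keep the gene. The controls carry Cre and received tamoxifen too, so Cre can remove 1 allele in their neurons. HuR WT is the name in the labels and does not mean intact HuR there. In total brain, fewer cells of a type and less RNA per cell cannot be told apart. Elavl1 itself had a log2 level of 8.22 ± 0.05 in HuR KO and 8.27 ± 0.26 in HuR WT brain (SD, n = 3 each). Whether its probeset reads the floxed exons is not stated in the labels, so this level does not check the deletion. Markers of brain cells were present in both groups: the neuronal splicing factor Rbfox3 averaged 8.51 in HuR KO and 8.50 in HuR WT brain, the myelin gene Mbp 8.18 in HuR KO and 8.17 in HuR WT, and the microglial receptor Cx3cr1 6.96 in HuR KO and 7.04 in HuR WT. These levels show presence only, and the marker lists are compared between genotypes further on. All levels here are log2(intensity + 1) after quantile normalization. The probesets of different genes are not on a common scale, so no gene's level is set against another's.

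The arrays numbered 3 stood apart from the other 4 in both groups. Xist, a non-coding RNA of the inactive X in female cells, was at 7.68 on HuR KO 3 and 7.69 on HuR WT 3, against 2.52 to 2.79 on the other arrays, and the Y-linked gene Uty was at 3.16 and 2.95 there, against 7.22 to 7.53. Both sexes were used, per the labels, which do not give the sex of a sample. Each group holds 1 array numbered 3, so this separation adds to the spread within both groups. Values are therefore also given with same-numbered arrays as pairs and without both arrays numbered 3. Where only 1 array numbered 3 is left out, the other stays in 1 group. This shifts the fold change of any gene that separates these arrays.

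Between HuR KO and HuR WT brain, 0 of the 9 subunit genes passed in limma at a threshold of 0.05 after Benjamini-Hochberg adjustment, and the background was the same: 0 of 16635 genes, or 0%. At an unadjusted p under 0.05 there were 0 of the 9 against 1.7% of all genes (282). When arrays of the same number formed pairs, there were again 0 of the 9, against 4.85% of all genes (806). The ranges of both groups overlapped in each of the 9 genes, while 5.7% of all genes had groups that did not overlap. Both arrays numbered 3, 1 in each group, were above the other 4 in all 9 genes, so the ranges had to overlap. This count therefore cannot show whether the groups differ. The point estimates lay close to equality, from 0.898-fold for Grin2b to 1.13-fold for Grin2d, with a median log2 fold change of -0.03 over the members and 0.01 over all genes tested. Values lay above 0 for 2 genes and below 0 for 7. The tally was 4 and 5 with values as deposited and 6 and 3 with arrays centred on their median, so it did not hold across scalings. The median of all genes moved too, at 0.013 with quantile normalization, 0.019 as deposited and 0.055 centred on the median. Gria1 and Grin2d lay above that median and the other members below it under each scaling, and none passed the adjusted threshold.

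Among the AMPA receptor genes, Gria1 encodes GluA1, the subunit whose delivery to synapses rises in long-term potentiation. Gria1 was at 9.64, 9.67 and 10.04 on HuR KO arrays 1, 2 and 3, against 9.48, 9.54 and 9.97 on HuR WT arrays 1, 2 and 3. The HuR KO array was the higher one in 3 of 3 pairs with the same number. The array numbered 3 was far above arrays 1 and 2 of either group, so the groups had to overlap. The log2 fold change was 0.13 ± 0.17 (SE), with a 95% interval from -0.28 to 0.53 (limma adjusted p = 0.9998). With pairs the interval was -0.08 to 0.33. Without both arrays numbered 3 the log2 fold change was 0.15 ± 0.10 (SE). Without HuR KO 3 alone, which leaves the high HuR WT 3 in 1 group only, it was -0.003.

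Gria2 encodes GluA2, whose transcript is edited so that most AMPA receptors exclude calcium; loss of this editing has been described in motor neurons of human amyotrophic lateral sclerosis, and a probeset level does not read it. Gria2 was at 10.57, 10.43 and 10.78 on HuR KO arrays 1, 2 and 3, against 10.37, 10.60 and 10.91 on HuR WT arrays 1, 2 and 3. HuR KO was higher in 1 of the 3 pairs. The log2 fold change was -0.03 ± 0.16 (SE), the 95% interval corresponds to 0.751-fold to 1.28-fold, and with pairs to 0.818-fold to 1.17-fold. Its sign turned with arrays centred on their median (0.011), without both arrays numbered 3 (0.019), without HuR KO 2 (0.049) and without HuR WT 3 (0.11).

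Gria3, an X-linked gene for GluA3, was at 9.05, 9.09 and 9.83 on HuR KO arrays 1, 2 and 3, against 9.04, 9.19 and 9.90 on HuR WT arrays 1, 2 and 3. Its 4 arrays numbered 1 or 2 lay within 0.15 of each other, whichever their group, and both arrays numbered 3 were at least 0.64 above them. HuR KO over HuR WT gave a log2 fold change of -0.05 ± 0.28 (SE), and -0.05 ± 0.11 without both arrays numbered 3. It turned positive without HuR KO 1 (0.084), HuR KO 2 (0.06) or HuR WT 3 (0.205).

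Gria4 encodes GluA4, the fast-gating subunit of many interneurons and of cerebellar cells. It was at 9.01, 9.24 and 9.62 on HuR KO arrays 1, 2 and 3, against 9.33, 9.11 and 9.47 on HuR WT arrays 1, 2 and 3. The HuR KO arrays spread more widely (SD 0.31) than the HuR WT arrays (SD 0.18), and array 1 was the lowest of HuR KO. Its log2 fold change of -0.01 ± 0.18 (SE) was the smallest in size of the 9. It turned positive with arrays centred on their median (0.027) and without HuR KO 1 (0.127), HuR KO 2 (0.015) or HuR WT 3 (0.072). Without both arrays numbered 3 it was -0.095.

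Among the NMDA receptor genes, Grin2a and Grin2b encode GluN2A and GluN2B, the main glutamate-binding subunits of forebrain; GluN2B prevails before birth and GluN2A joins it as synapses mature. Grin2b was at 8.07, 7.74 and 9.33 on HuR KO arrays 1, 2 and 3, against 8.12, 8.13 and 9.36 on HuR WT arrays 1, 2 and 3. HuR KO was lower in 3 of 3 pairs, though by 0.05 in pair 1 and 0.03 in pair 3, and by 0.39 in pair 2. The log2 fold change was -0.16 ± 0.47 (SE), with an interval from 0.418-fold to 1.93-fold, and with pairs the standard error was 0.11 and the interval 0.749-fold to 1.08-fold (limma unadjusted p = 0.194, adjusted p = 0.984). Leaving out HuR KO 2 gave 0.164 and leaving out HuR WT 3 gave 0.253, while leaving out both arrays numbered 3 gave -0.222.

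Grin2a was at 6.93, 6.88 and 8.02 on HuR KO arrays 1, 2 and 3, against 6.83, 6.96 and 8.15 on HuR WT arrays 1, 2 and 3. In both groups arrays 1 and 2 were nearly alike and array 3 lay more than 1 log2 unit higher. The log2 fold change was -0.04 ± 0.42 (SE), and with pairs the interval ran from 0.836-fold to 1.14-fold. The sign turned with values as deposited (0.001), with arrays centred on their median (0.037), without both arrays numbered 3 (0.009), and without HuR KO 1 (0.137), HuR KO 2 (0.164) or HuR WT 3 (0.38).

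Grin2d encodes GluN2D, a slowly closing subunit of interneurons, diencephalon and brainstem. It was at 5.50, 5.59 and 6.24 on HuR KO arrays 1, 2 and 3, against 5.13, 5.65 and 6.02 on HuR WT arrays 1, 2 and 3. HuR KO was higher in 2 of 3 pairs. Grin2d had the highest fold change of the 9 and, with pairs, the smallest unadjusted p among them, with a log2 fold change of 0.17 ± 0.27 (SE), or ± 0.11 with pairs (limma unadjusted p = 0.164, adjusted p = 0.984). Without HuR WT 1, the lowest array, it was -0.061, and without HuR KO 3 it was -0.058. Without both arrays numbered 3 it was 0.152.

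Grin2c encodes GluN2C, found above all in mature cerebellar granule cells and in some glia. It was at 6.34, 6.34 and 6.60 on HuR KO arrays 1, 2 and 3, against 6.46, 6.36 and 6.56 on HuR WT arrays 1, 2 and 3. It varied least of the 9 genes, over a range of 0.26 across all arrays, and its log2 fold change of -0.03 ± 0.12 (SE) allowed 0.804-fold to 1.19-fold. Its sign turned with values as deposited (0.005), with arrays centred on their median (0.041), and without HuR KO 1 (0.01), HuR KO 2 (0.012) or HuR WT 3 (0.017).

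Grin3a encodes GluN3A, a glycine-binding subunit of juvenile synapses that lowers calcium entry. It was at 6.91, 7.03 and 7.33 on HuR KO arrays 1, 2 and 3, against 7.10, 7.14 and 7.30 on HuR WT arrays 1, 2 and 3. The log2 fold change of -0.09 ± 0.14 (SE) stayed below 0 under all 15 alternatives run and passed the adjusted threshold under none of them. The value nearest 0 was -0.001 without HuR KO 1. Some alternatives could not move this value: the filters on level, the pairs and the mean of all probesets. Grin3a has no second named probeset, and both groups hold the same array numbers.

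**Figure D1:**
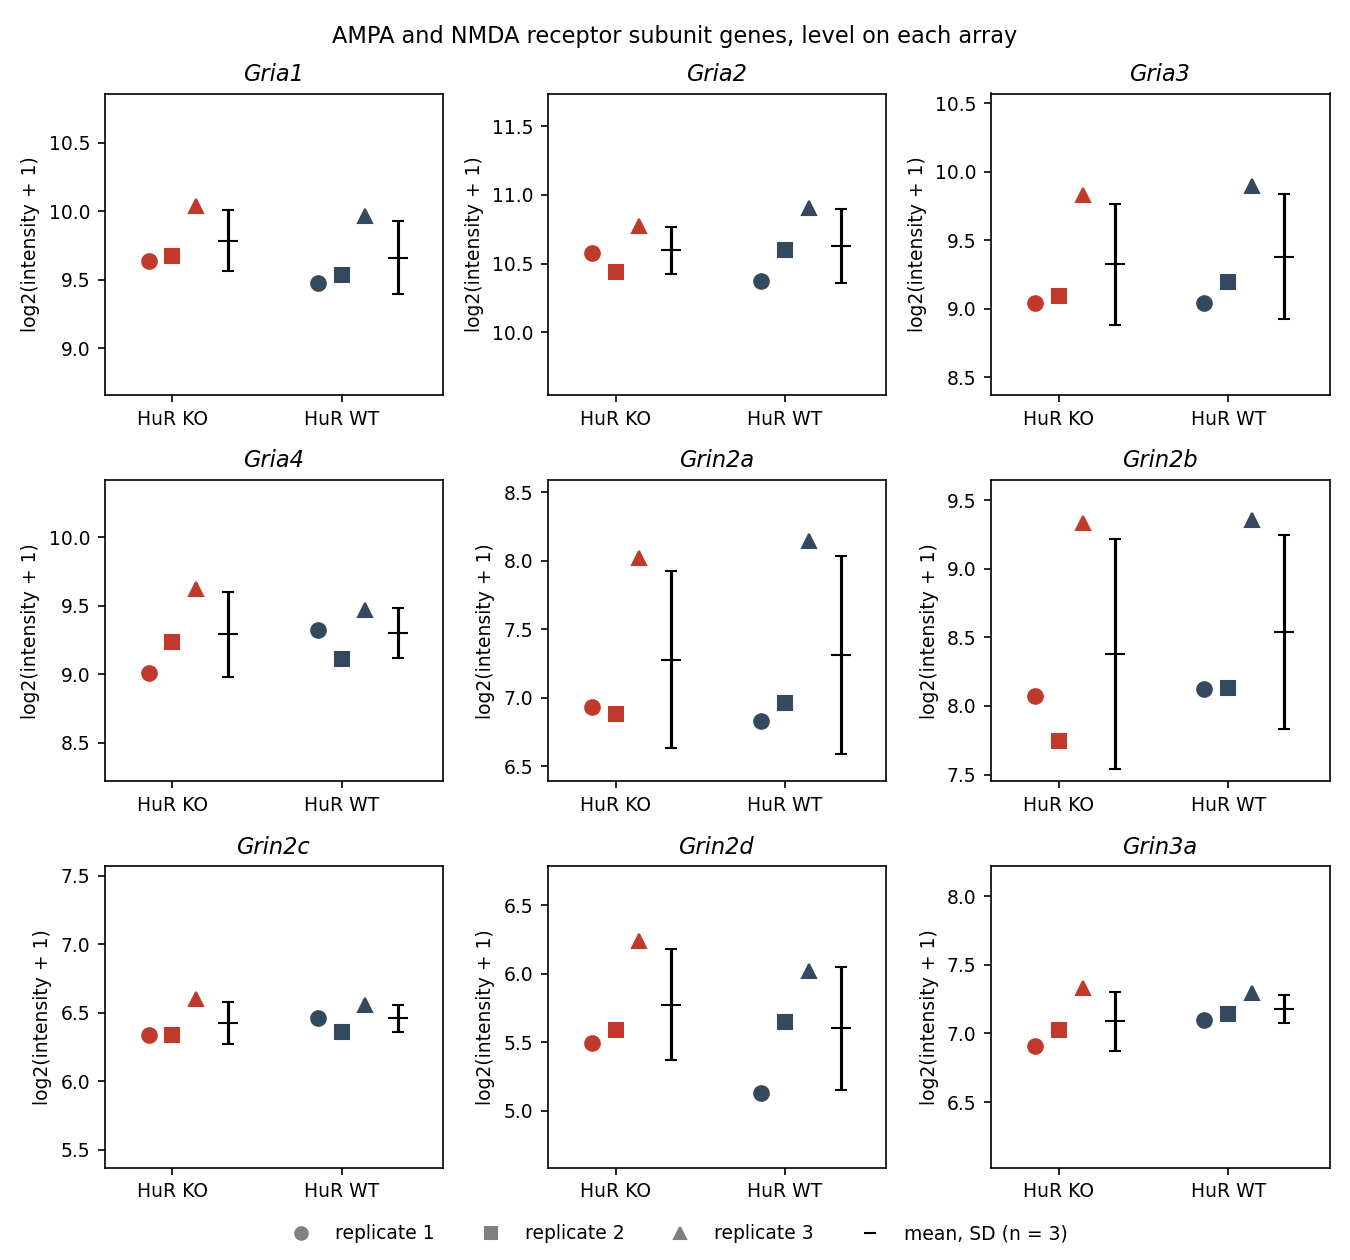
Level of each subunit gene on the 6 arrays, as log2(intensity + 1) after quantile normalization, with HuR KO in red and HuR WT in dark blue. Symbols give the replicate number, bars the group mean and SD (n = 3), and each panel spans the same height of the log2 scale; the triangle of replicate 3 is the highest point of its group in all 9 panels, with the widest gaps for Grin2a and Grin2b.

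The standard errors show where the measurement was limited. Without pairs they ran from 0.12 for Grin2c to 0.47 for Grin2b, and with pairs from 0.08 to 0.12. The half-width of the 95% interval had a median of 0.42 over the members without pairs, against 0.33 over all genes, and of 0.22 with pairs, against 0.24 over all genes. Without both arrays numbered 3, log2 fold changes ran from -0.22 for Grin2b to 0.15 for Grin2d, and 0 of 9 passed (smallest limma adjusted p = 0.933).

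**Figure D2:**
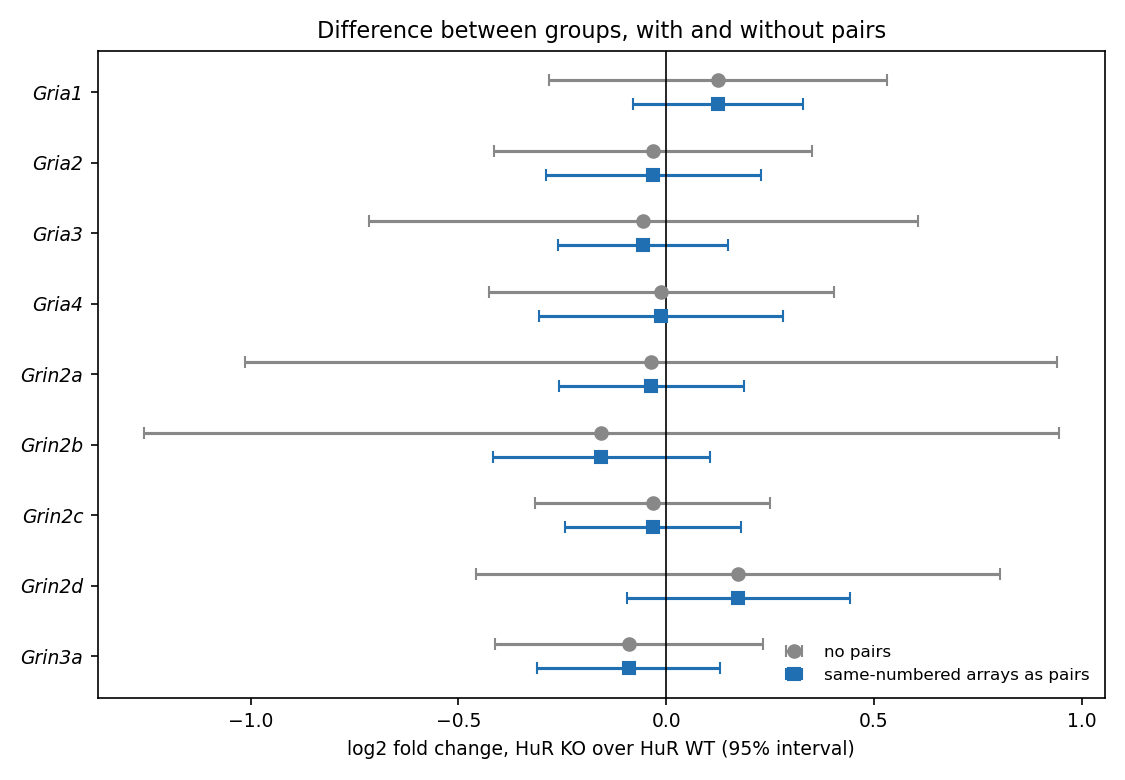
Log2 fold change of HuR KO over HuR WT for the 9 genes with 95% intervals, in grey without pairs and in blue with same-numbered arrays as pairs. Each interval includes 0, and pairing narrows those of Grin2a, Grin2b and Gria3 most.

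The balance between subunits was compared as a log2 difference within each array, of which only the contrast between groups can be read. The difference of Grin2b minus Grin2a was 1.14, 0.86 and 1.31 on HuR KO arrays 1, 2 and 3, against 1.29, 1.17 and 1.21 on HuR WT arrays 1, 2 and 3. The groups differed by -0.12, less than the SD of 0.23 among HuR KO arrays (two-sided exact permutation p = 0.5, where 3 against 3 arrays allow no p below 0.1), and by 0 without HuR KO 2. The difference of Gria1 minus Gria2 was -0.93, -0.76 and -0.74 on HuR KO arrays 1, 2 and 3, against -0.90, -1.06 and -0.94 on HuR WT arrays 1, 2 and 3. The groups differed by 0.16 (two-sided exact permutation p = 0.2), with 2 of the 3 HuR KO arrays above every HuR WT array. The limit of 0.1 belongs to this permutation test. With same-numbered arrays as pairs, a two-sided exact test that exchanges the groups within pairs gave p = 0.5 for both differences. The 3 pairs allow still fewer assignments. The permutation test was also rerun with arrays left out.

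The larger contrast in these genes ran between arrays of the same genotype. In all 9 genes, both arrays numbered 3 were higher than each of the other 4, which was so for 23.4% of all genes tested (3897), while 20.6% had both below the other 4. The array numbered 3 was the highest within its group, in both groups, for all 9 members and for 27.1% of all genes. All 9 also showed this order with values as deposited, with arrays centred on their median, with a pseudocount of 16 and with the mean of all probesets of a gene. The dimmer second probesets that 3 members have (Grin2b, Grin2c and Grin2d) did not show it, in 0 of 3. The comparison of array numbers was chosen after the data had been seen and is given without a test.

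The size of this separation differed between subunits, and for some of them between the genotypes. Grin2b on array 3 was 2.68-fold above the mean of arrays 1 and 2 in HuR KO brain and 2.34-fold in HuR WT brain, and Grin2a was 2.17-fold above in HuR KO and 2.38-fold in HuR WT. As deposited, the Grin2b intensity was 266, 213 and 649 on HuR KO arrays 1, 2 and 3, against 279, 266 and 662 on HuR WT arrays 1, 2 and 3. Gria3 followed with 1.70-fold in HuR KO and 1.72-fold in HuR WT, and Grin2d with 1.62-fold and 1.55-fold in the same order. These 4 genes exceeded the 95th percentile of all genes in both groups, a log2 difference of 0.58 in HuR KO and 0.61 in HuR WT. The other 5 lay inside it, down to Grin2c at 1.20-fold in HuR KO and 1.11-fold in HuR WT. Among these 5, Gria4 was 1.41-fold above in HuR KO and 1.19-fold in HuR WT, and Grin3a 1.29-fold in HuR KO and 1.13-fold in HuR WT. With 1 array numbered 3 in each group, a difference in separation between the genotypes has no replicate. Over the members the median log2 difference was 0.50 in HuR KO and 0.46 in HuR WT, against 0.00 and 0.02 over all genes.

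**Figure D3:**
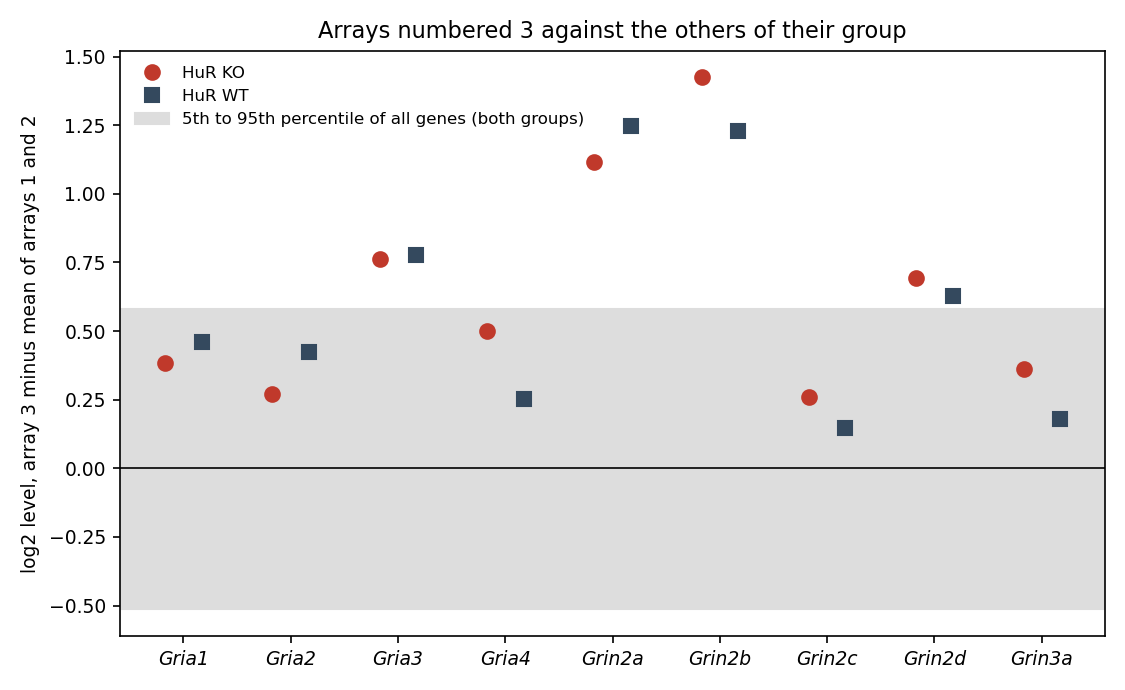
Log2 level on the array numbered 3 minus the mean of arrays 1 and 2 of the same group, with HuR KO as red circles and HuR WT as dark blue squares. The grey band covers the range from the 5th to the 95th percentile of all 16635 genes that both groups share; all 18 points lie above 0, and those of Gria3, Grin2a, Grin2b and Grin2d lie above the band.

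Promoter windows were looked up after the members were seen to move together between arrays by different amounts. A part of the promoter sequence in this was not tested. RefSeq (GRCm38.p6) windows of 300 bases, from 250 before to 50 after the gene start, matched 5 of the 10 members. Gria2, Grin2d and Grin2c are shown, as the member with a match to the motif of NRF-1, a transcription factor of respiratory chain genes, and the members with the largest and the smallest separation of arrays numbered 3 among those with a window. Capitals mark the core of the NRF-1 motif, which is GCGCA and GCGC with any 1 base between them, and GGGCGG, the core of the GC box bound by Sp1 factors, searched on both strands.
Gria2 (chr3:80802786-80803085, minus strand): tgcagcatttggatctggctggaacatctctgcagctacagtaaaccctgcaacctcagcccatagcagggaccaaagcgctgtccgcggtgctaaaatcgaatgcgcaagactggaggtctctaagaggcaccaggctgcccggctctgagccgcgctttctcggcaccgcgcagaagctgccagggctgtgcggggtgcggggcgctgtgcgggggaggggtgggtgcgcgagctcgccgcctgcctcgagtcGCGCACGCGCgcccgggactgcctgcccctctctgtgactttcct
Grin2d (chr7:45866632-45866931, minus strand): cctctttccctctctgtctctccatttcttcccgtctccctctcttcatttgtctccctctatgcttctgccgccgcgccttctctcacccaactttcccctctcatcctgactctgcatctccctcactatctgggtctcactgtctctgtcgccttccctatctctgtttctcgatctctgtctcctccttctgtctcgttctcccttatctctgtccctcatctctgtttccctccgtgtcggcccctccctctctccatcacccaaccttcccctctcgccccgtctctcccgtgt
Grin2c (chr11:115267194-115267493, minus strand): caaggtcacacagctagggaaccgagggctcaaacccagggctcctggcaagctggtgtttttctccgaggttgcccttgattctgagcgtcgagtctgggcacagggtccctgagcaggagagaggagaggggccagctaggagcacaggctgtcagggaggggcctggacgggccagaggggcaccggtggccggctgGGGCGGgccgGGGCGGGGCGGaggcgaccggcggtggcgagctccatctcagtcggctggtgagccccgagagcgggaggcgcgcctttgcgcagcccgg
The NRF-1 core occurred 1 time in the Gria2 window and in 4.6% of all 32851 windows. The GC box core occurred 3 times in the Grin2c window, 2 of them overlapping, and in 35.7% of all windows. Neither was found in the Grin2d window, which says only that these letters are not in it. Of the windows not shown, that of Gria4 held neither core and that of Grin1 held the GC box core 1 time.

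Proteins that travel with the receptors were read from lists of genes. Signs in these lists were counted with quantile normalization only, where the median of all genes was 0.013. The sign tally of the members against 0 changed with the scaling, so these counts give no direction. Of 20 auxiliary subunits and assembly factors of AMPA receptors, 0 passed the adjusted threshold in either direction, and 9 had values above 0 (median -0.02 on the log2 scale). Cacng8, the TARP of hippocampal receptors, was at 8.01 ± 0.11 in HuR KO and 8.16 ± 0.18 in HuR WT brain (SD, n = 3 each), a log2 fold change of -0.15, and Shisa9, which slows recovery from desensitisation, was at -0.16 ± 0.18 (SE). On this list 16 of 20 genes had both arrays numbered 3 above the other 4, against 23.4% of all genes. Shisa6, an auxiliary subunit that holds AMPA receptors at the synapse, was named after its values were seen. It was at 6.79, 6.95 and 8.26 on HuR KO arrays 1, 2 and 3, against 6.93, 6.95 and 8.20 on HuR WT arrays 1, 2 and 3. Array 3 was 2.63-fold above arrays 1 and 2 in HuR KO and 2.39-fold in HuR WT.

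Of 18 postsynaptic scaffold genes tested, 0 passed, 14 had values above 0, and the median on the log2 scale was 0.06, against 0.013 over all genes. Homer2, which links receptors to internal calcium stores, was at 0.21 ± 0.21 (SE), and Pick1, which binds GluA2 and acts in its removal from the surface, was at 0.13 ± 0.15. Both arrays numbered 3 were highest in 6 of these 18 genes and lowest in 5, against 23.4% and 20.6% of all genes. Of 16 kinases, phosphatases and anchors that act on the receptors, 0 passed and 6 had values above 0 (median -0.01). Camk2a, the kinase of long-term potentiation, was at 10.54 ± 0.08 in HuR KO and 10.42 ± 0.03 in HuR WT brain (SD, n = 3 each; limma adjusted p = 0.9998). Its groups did not overlap, while those of the other genes on this list did. Over all genes, 5.7% had groups that did not overlap, so this is no result about Camk2a. Akap5, which anchors kinases and calcineurin beside AMPA receptors, was at -0.08 ± 0.19 (SE). In this list of 16, both arrays numbered 3 were highest in 10 genes and lowest in 3.

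Kainate and delta receptor subunits, the other glutamate-gated families, had 0 of 8 genes past the threshold and 6 with values above 0 (median 0.03). Grik2 was at -0.11 ± 0.11 (SE) and Grik1 at 0.09 ± 0.14, and 6 of the 8 had both arrays numbered 3 highest, against 23.4% of all genes. Genes that supply or clear glycine and D-serine had 0 of 8 past the threshold and 5 with values above 0 (median 0.03). Among them the glycine cleavage enzyme Gldc was at 0.18 ± 0.16 (SE) and the transporter Slc7a10 at -0.08 ± 0.10. Both arrays numbered 3 were highest in 3 of these 8 genes and lowest in 3. Of 12 genes for RNA editing and RNA-binding proteins, 0 passed and 8 had values above 0 (median 0.03), with the translational regulators Cpeb3 at 0.21 ± 0.17 (SE) and Cpeb1 at 0.13 ± 0.13. In these 12, both arrays numbered 3 were highest in 6 genes and lowest in 2.

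Markers of cell types moved with the arrays numbered 3 as well. Against a share of 23.4% of all genes, both of those arrays were highest in 7 of 8 pan-neuronal markers and 5 of 6 markers of cerebellar granule and Purkinje cells, in 4 of 7 of GABAergic interneurons and in 3 of 5 of excitatory forebrain neurons. They were highest in 0 of 7 astrocyte and 0 of 6 microglia markers, and lowest in 4 of the 7 and 5 of the 6, against 20.6% of all genes. The summed intensity of the neuronal markers ran from 11430 to 15540 in HuR KO and from 10900 to 15760 in HuR WT brain. For the cerebellar markers it ran from 1698 to 3226 in HuR KO and from 1845 to 2947 in HuR WT. Gabra6, a receptor subunit of cerebellar granule cells, was at 8.11, 8.61 and 9.22 on HuR KO arrays 1, 2 and 3, against 8.70, 8.32 and 9.24 on HuR WT arrays 1, 2 and 3. Both were highest in 1 of 6 oligodendrocyte markers and 1 of 4 markers of their precursors, which is near the share over all genes. The part of Xist and of these markers in the levels of the receptor genes was not tested.

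**Figure D4:**
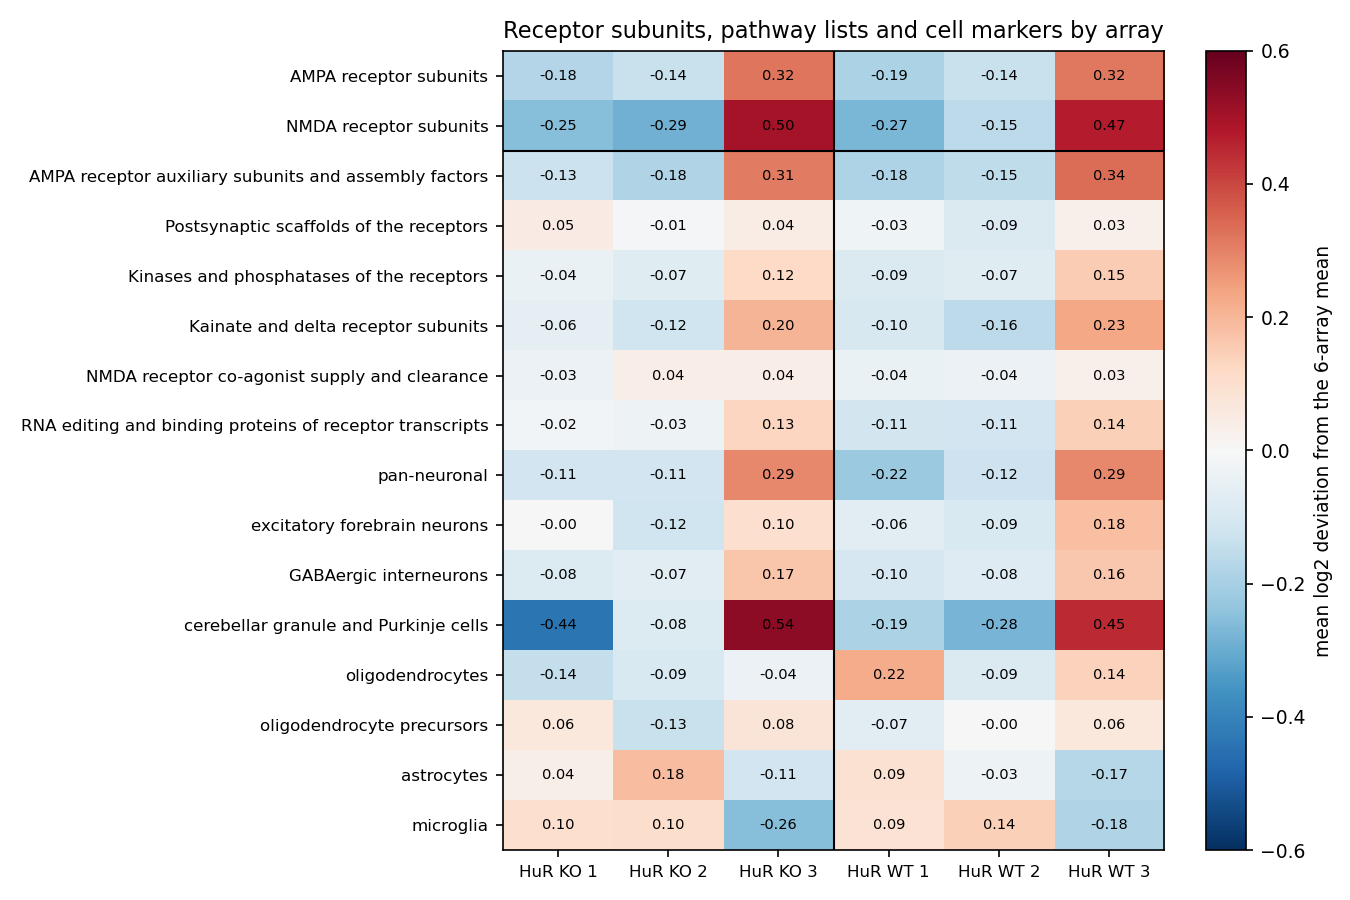
Mean log2 deviation from the mean over the 6 arrays for the AMPA and NMDA subunits, the pathway lists and the cell type markers (rows), with HuR KO arrays left of HuR WT arrays; red is above and blue below the mean. The NMDA subunits were at 0.50 on HuR KO 3 and 0.47 on HuR WT 3, the cerebellar markers at 0.54 and 0.45, and the microglia markers at -0.26 and -0.18.

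Between genotypes the marker lists gave no call either. An unadjusted p under 0.05 was found for 1 of their 49 genes, or 2.04%, near the 1.7% of all genes: Opalin of oligodendrocytes (log2 fold change -0.58 ± 0.18, SE; limma adjusted p = 0.9998). Of 6 oligodendrocyte markers, 5 had values below 0, with a median of -0.12 on the log2 scale, and Mbp was the 1 above it at 0.01. The groups of Opalin, Cldn11 (-0.25) and Mog (-0.19), named after their values were seen, did not overlap, against 5.7% of all genes; with values as deposited or centred on the median this held for 1 of the 6. Values above 0 were found for 7 of 7 astrocyte markers (median 0.07), with Gfap at 0.15 ± 0.15 (SE), and for 8 of 8 pan-neuronal markers (median 0.03), under each of the 3 scalings. The median of all genes was also above 0, at 0.013 with quantile normalization, 0.019 as deposited and 0.055 centred on the median. In the same order the pan-neuronal medians were 0.029, 0.019 and 0.055, at or near that of all genes. The astrocyte medians were 0.07, 0.077 and 0.113. The other lists were mixed, with values above 0 in 2 of 5 excitatory, 4 of 7 GABAergic, 4 of 6 cerebellar, 2 of 4 precursor and 3 of 6 microglia markers. Single markers need not follow their list: log2 fold changes of the first gene of each were 0.09 for the vesicular glutamate transporter Slc17a7, -0.03 for the GABA-making enzyme Gad1, -0.10 for Gabra6, -0.05 for Pdgfra of oligodendrocyte precursors and -0.08 for Cx3cr1 of microglia.

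The genes with the most similar pattern over the 6 arrays were named by the root mean square difference of log2 deviations, with each gene set to its own mean. For the mean of the 4 AMPA subunits they were Serinc3, Atxn7l3b, Zfp142, Ctsb and Hgs, at 0.016 to 0.020. For the mean of the 5 NMDA subunits they were Dpp6, Slc35f1, Car10, Aak1 and Sgip1, at 0.028 to 0.037. Dpp6, the nearest, was at 8.78, 8.73 and 9.45 on HuR KO arrays 1, 2 and 3, against 8.70, 8.85 and 9.49 on HuR WT arrays 1, 2 and 3. Among the members themselves, Grin2a and Grin2b were each other's nearest (0.15), as were Gria1 and Gria2 (0.11), Gria3 and Grin2d (0.17), and Grin2c and Grin3a (0.07). These distances rest on 6 arrays that share the separation of number 3.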

How the data were processed

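Expression in total brain of 3 HuR KO and 3 HuR WT samples was deposited by the authors as linear intensity, 41340 probesets to an array, with array medians from 13.4 to 14.6; the number of arrays limits the precision. MAS5, with no version, is named per the submitters' processing notes, and its background correction and scaling are not stated there. MAS5 was made for arrays with mismatch probes, which this array type lacks, so how the probes were summarised into these intensities is unclear. Per the labels, 150 ng of RNA was labelled. Probes were named from the platform annotation: 23521 probesets had 1 symbol, 1814 several and 16005 none. All 6 columns of values were used, and 0 were left out.

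Values were transformed as log2(intensity + 1) and quantile normalized, since array medians differed by 0.12. A gene was its probeset with the highest mean, and the lowest 25% of 22180 genes were left out (5545). Groups were compared with limma 3.58.1 (R 4.3.3; lmFit and eBayes, two-sided, Benjamini-Hochberg over 16635 genes), tested on simulated data. Subunit differences had exact permutation tests over 20 assignments, and with pairs an exact test that exchanges the groups within pairs. Named were all members, Elavl1, 2 genes of smallest p per pathway list, the first gene per marker list and the nearest patterns; Xist, Uty, Opalin, Cldn11, Mog and Shisa6 were added after their values were seen. The members and lists were chosen with earlier results of these data known.

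Deviations from group means of arrays with the same number correlated at 0.31, 0.37 and 0.75 for numbers 1, 2 and 3, all above the limit of 0.1, so the numbers were taken as pairs on this check; no label states a pairing. HuR KO 2 correlated with HuR WT 1 at 0.40, so only number 3 is specific. Alternatives varied the normalization, pseudocount, filter, pairs, array weights, probeset rule and arrays. Figures were drawn with matplotlib 3.10.9.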

Additional observations from a re-analysis of the deposited data

How the results depend on the processing

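Under 15 alternatives, 0 of the 9 subunit genes and 0 of all genes passed the adjusted threshold of limma, the smallest limma adjusted p being 0.933 for the members and 0.174 for all genes (without HuR WT 2). The count of all genes at an unadjusted p under 0.05 was 282, against 806 with the replicate block, 755 with array weights, 465 without the filter, 88 in the upper 50% of genes, and 164 to 856 when arrays were left out. No member's call changed with the replicate block. The changes of Grin2b minus Grin2a (-0.12) and Gria1 minus Gria2 (0.16) cannot move with pairs, since both groups hold the same array numbers. For Gria1 minus Gria2, p was 0.2 in the exact permutation test and 0.5 in the exact test with pairs. For Grin2b minus Grin2a it was 0.5 in both. Over all genes at an unadjusted p under 0.05, 155 were higher and 127 lower in HuR KO, against 107 and 147 with values as deposited and 166 and 76 with arrays centred on their median. With arrays left out the changes of both differences ran from -0.23 to 0 and from 0.109 to 0.218. With the mean of all probesets, Grin2b minus Grin2a changed by -0.191.

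Signs turned with arrays centred on their median for Gria2 (0.011), Gria4 (0.027), Grin2a (0.037) and Grin2c (0.041), and with values as deposited for Grin2a (0.001) and Grin2c (0.005). Without both arrays numbered 3 they turned for Gria2 (0.019) and Grin2a (0.009). With arrays left out, log2 fold changes ran from -0.003 to 0.279 for Gria1, from -0.158 to 0.11 for Gria2, from -0.309 to 0.205 for Gria3, from -0.179 to 0.127 for Gria4, from -0.407 to 0.38 for Grin2a, from -0.631 to 0.253 for Grin2b, from -0.119 to 0.017 for Grin2c and from -0.061 to 0.383 for Grin2d. Marker tallies under other scalings were added after seeing the data. With arrays centred on their median, values above 0 were found in 3 of 5 excitatory, 5 of 7 GABAergic and 5 of 6 cerebellar markers. They were found in 2 of 6 oligodendrocyte, 3 of 4 precursor and 4 of 6 microglia markers. Each of these tallies was higher than with quantile normalization, and the median of all genes was 0.055 against 0.013. Leaving out 1 array numbered 3 leaves the other in 1 group only. Centring shifts the fold changes of all genes by the same amount against values as deposited. Gria2 went from -0.024 to 0.011 and Gria4 from -0.009 to 0.027 by this shift. The cause of the other sign changes was not tested.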

Other observations

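Grin3b, which encodes the glycine-binding GluN3B best known from motor neurons of brainstem and spinal cord, was not among the 10 genes. It was at 4.22, 4.20 and 4.44 on HuR KO arrays 1, 2 and 3, against 3.94, 4.31 and 4.50 on HuR WT arrays 1, 2 and 3, near the array median of 3.88. Its log2 fold change was 0.04 ± 0.16 (SE; limma adjusted p = 0.9998), and both arrays numbered 3 were above the other 4 by at least 0.13.

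A dimmer second probeset carries the name of 3 members. That of Grin2b averaged 3.33 ± 0.22 in HuR KO and 3.63 ± 0.41 in HuR WT brain, that of Grin2c 3.20 ± 0.25 and 3.28 ± 0.04 in the same order, and that of Grin2d 4.59 ± 0.09 in HuR KO and 4.43 ± 0.10 in HuR WT (SD, n = 3 each). The second probesets of Grin2b and Grin2c were below the array median of 3.88 in both group means. That of Grin2b had its highest array in HuR WT 2, at 4.05, and not in the arrays numbered 3, where it was at 3.58 in HuR KO and 3.61 in HuR WT. That of Grin2d, above the array median, was at 4.69, 4.52 and 4.57 on HuR KO arrays 1, 2 and 3, against 4.48, 4.32 and 4.51 on HuR WT arrays 1, 2 and 3, and so had its highest array in HuR KO 1. The groups of this second Grin2d probeset did not overlap, with HuR KO minus HuR WT at 0.16. By their brightest probesets, 5.7% of all genes had groups that did not overlap. No test was run on the second probesets alone. That of Grin2c was at 3.45 on HuR KO 3 and 3.30 on HuR WT 3, against 3.31 on HuR WT 2. The separation of arrays numbered 3 seen in the brighter probesets of these genes was thus not seen in their second probesets.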
